A study of Mus musculus with 2 samples.

Results

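Fetal-like and regenerative epithelial genes are transcripts known from the immature gut and from intestinal epithelium repairing itself after injury. The 8 listed here are Sprr1a, Tnfrsf12a, Plaur, Emp1, Clu, Ly6a, Ly6d and Phlda2, read in crypts of the mouse small intestine with and without Lpcat3. They were chosen by their symbols in the array annotation, with the ratio between these same 2 arrays already known, so their ratios are a description and nothing here tests them. Of the 8 genes, 7 were named by at least 1 probe set, out of 18193 genes named on the array, and together they had 12 of its 45101 probe sets. Ly6a, which encodes the Sca-1 surface antigen, is named by no probe set of the annotation used here and was not analysed here.

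Knockout mice carried floxed Lpcat3 alleles together with Villin-CreERT2, a Cre recombinase driven by the villin promoter in intestinal epithelium and switched on by tamoxifen. Control mice were Lpcat3 F/F without Cre. Mice of both groups, aged 8 to 10 weeks, were injected intraperitoneally with tamoxifen, 1 mg a day for 5 days, and gave crypts 2 weeks after it. RNA from 5 animals of a genotype was combined and read on 1 Affymetrix array, so each group is a single measurement, no genotype test can be made and no p-value is given. Genotype, Cre, tamoxifen acting through Cre, pool and array cannot be told apart, and in such bulk RNA a change in the number of cells of a type and a change in RNA per cell cannot be told apart either.

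The crypt base normally renews the epithelium from Lgr5 stem cells under Wnt signals. After damage, or in the fetal gut, epithelial cells instead carry a programme in which Clu marks rare reviving stem cells and Ly6a marks fetal-like repair epithelium, and which is known to depend on the transcriptional co-activator YAP and its TEAD partners. Several of the genes below are also induced in skin wounds and by growth factors, so none of them is restricted to the gut.

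The targeted gene, Lpcat3, had a signal of 928 in the knockout pool, against 4691 in the control pool, which is 5.06-fold lower by its 1 probe set. All 10 general markers of intestinal epithelium lay within 1.5-fold, among them Epcam, an epithelial adhesion molecule, with 25300 in the knockout pool and 25413 in the control pool. Most genes did so too, since of all measured genes 4.76% passed 1.5-fold upward and 8.74% downward. Signals are MAS5 values scaled to the same mean on both arrays. Values under 92.9, the median of all signals, were treated as background and raised to that floor, so a gene under it on 1 array has a bound, written "at least". A gene under it on both was not measured, and 11496 genes were measured. The error of a log2 ratio was judged by setting probe sets of 1 gene against each other, which gave an SD of 0.28 over 4582 genes and of 0.36 over the 892 genes whose second probe set averaged under 2 times the floor. Over the 2211 genes whose second probe set averaged at least 451, the SD was 0.22. These SDs leave out how mice and pools differ, so with 1 array a group the true error of any value may be larger.

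All 7 measured genes were higher in the knockout pool, by log2 ratios of 0.82 to 2.67 and a median of 1.17 (2.25-fold), whereas the median over all measured genes was -0.042. All 7 passed 1.5-fold, as did 4.76% of measured genes in that direction, and 5 passed 2-fold, as did 1.41%; since these ratios were known when the genes were picked, nothing is read from the comparison. Every probe set of these genes that was above the floor on either array, 9 of 9, gave the higher signal in the knockout pool. The other 3 probe sets, all of Clu, were below it on both arrays. Control signals were low for most of the genes, and 4 of the 7 lay between the floor and 1.5 times the floor. Among all 1043 genes with a control signal in that range, 2.88% were at least 2-fold higher in the knockout pool, and their median log2 ratio was -0.077.

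**Figure D1:**
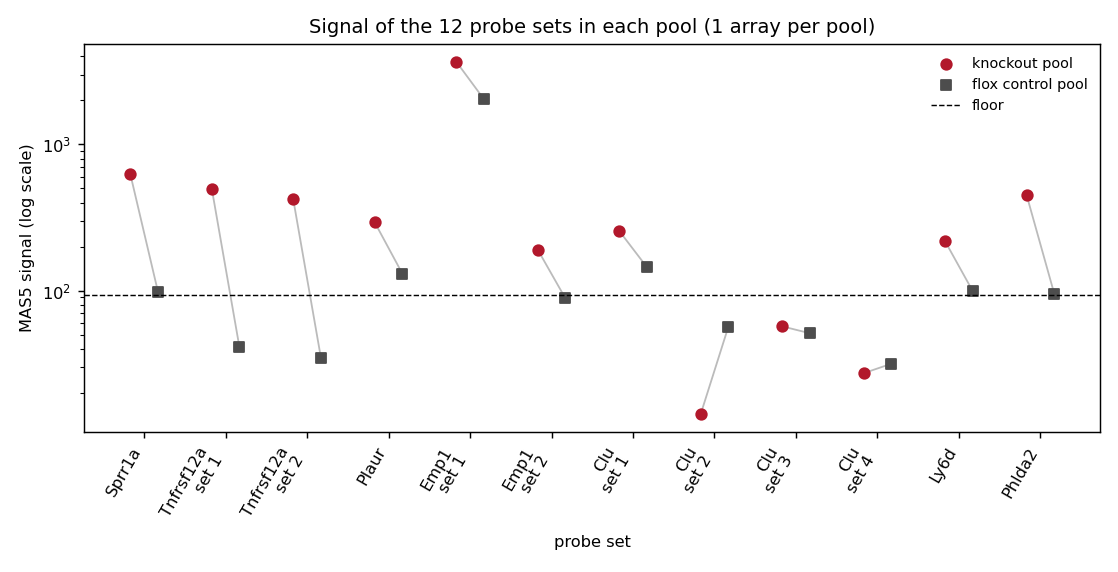
MAS5 signal on a log axis for each of the 12 probe sets, with the knockout pool as a red circle on the left and the flox control pool as a grey square on the right of each pair; the dashed line is the floor of 92.9. The control signals of Sprr1a, Ly6d and Phlda2 sit just above the floor, those of Tnfrsf12a lie under it, and Clu sets 2 to 4 are under it in both pools.

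Sprr1a encodes a small proline-rich protein that is cross-linked into the cornified envelope of skin and is also known as an injury-induced gene. It had a signal of 628 in the knockout pool and 98.4 in the control pool, a log2 ratio of 2.67 (6.38-fold). The control value was only 1.06 times the floor, so the ratio rests on a signal that is nearly background. It was the 7th highest ratio among the 11496 measured genes. The bright genes with the most similar ratio, over these 2 arrays, were Igkv8-30, Akr1b8 and Rab30, whose log2 ratios differed from that of Sprr1a by 0.061, 0.066 and 0.083.

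The surface receptors were higher as well. Tnfrsf12a encodes Fn14, the receptor of the cytokine TWEAK, which is induced in many injured tissues. Its brighter probe set gave 499 in the knockout pool and 41.0 in the control pool, which is at least 5.38-fold higher. The second gave 421 in the knockout pool and 34.7 in the control pool, at least 4.54-fold higher. Both were clearly above the floor in the knockout pool and clearly below it in the control pool, and without a floor the signals of the brighter one differ by 3.61 on the log2 scale.

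Plaur encodes the receptor of urokinase, which gathers plasminogen activation at the cell surface. It had 293 in the knockout pool and 131 in the control pool, a log2 ratio of 1.17 (2.25-fold, 1 probe set). Ly6d, a small surface protein held by a lipid anchor and related in fold to both Ly6a and Plaur, had 218 in the knockout pool and 99.3 in the control pool, a log2 ratio of 1.13 (2.19-fold, 1 probe set). The Ly6d control signal was 1.07 times the floor, while that of Plaur was 1.41 times.

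Emp1, a tetraspan epithelial membrane protein of the PMP22 family, was the member with the strongest measurement. Its brightest probe set had 3684 in the knockout pool and 2041 in the control pool, a log2 ratio of 0.85 (1.81-fold), with both signals far above the floor. A second probe set gave 191 in the knockout pool and 88.7 in the control pool, at least 2.06-fold higher. Both probe sets of Emp1 therefore showed the same direction at very different brightness.

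Clu encodes clusterin, a secreted chaperone and the marker of reviving stem cells. The 1 probe set above the floor had 257 in the knockout pool and 145 in the control pool, a log2 ratio of 0.82 (1.77-fold). This probe set ends in _x_at, a class that can bind transcripts of other genes. The other 3 probe sets had 14.3, 57.1 and 27.3 in the knockout pool, against 56.6, 51.2 and 31.7 in the control pool, all under the floor. Clu thus had a difference by 1 probe set of 4, and no measurable level by the rest.

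Phlda2 encodes a small protein with a pleckstrin homology domain. It is imprinted, expressed from the maternal allele, and known for restraining growth of the placenta. Its signal was 452 in the knockout pool and 95.5 in the control pool, a log2 ratio of 2.24 (4.74-fold, 1 probe set). As with Sprr1a, the control value, 1.03 times the floor, was close to background.

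With Tnfrsf12a at its bound, so that its true place may be higher, the genes ran Sprr1a, Tnfrsf12a, Phlda2, Plaur, Ly6d, Emp1 and Clu. The error of a difference between ratios, from the probe-set SD of 0.28, was 0.39 on the log2 scale. Over genes with a dim second probe set that SD was 0.36, so for members with a low control signal 0.39 may be too small. The step between Phlda2 and Plaur was 1.08, or 2.73 of these errors, and each other step, as drawn with the bound, was at most 0.28. The steps between Plaur and Ly6d, Ly6d and Emp1, and Emp1 and Clu were within that error, while the place of Tnfrsf12a, a bound, relative to Sprr1a and Phlda2 is not settled.

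**Figure D2:**
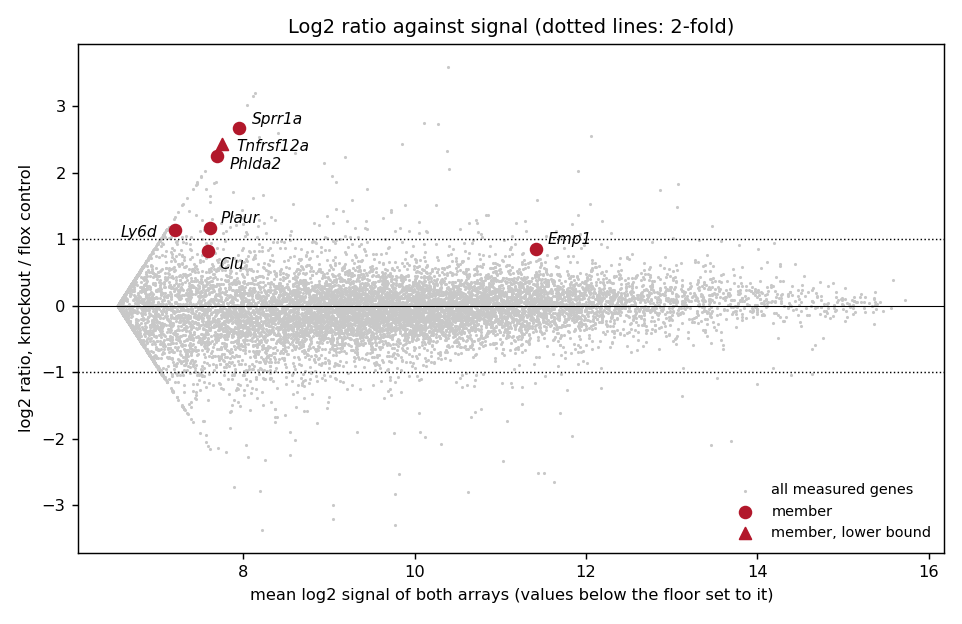
Log2 ratio of knockout over flox control (vertical axis) against the mean log2 signal of both arrays (horizontal axis) for the 11496 measured genes, with the 7 members in red and the bound for Tnfrsf12a as a triangle. Sprr1a, Tnfrsf12a and Phlda2 lie along the upper edge at low signal, an edge made by control values at or near the floor, while Emp1 lies far to the right at 0.85.

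The promoters of these genes were compared because the genes differed in the same direction. RefSeq windows (GRCm38.p6) of 250 bases before to 50 bases after a transcript start were found for 5 members, Sprr1a, Tnfrsf12a, Plaur, Emp1 and Phlda2, with 2 windows for Emp1. The AP-1 motif TGANTCA, the letters bound by Fos and Jun proteins, was present in a window of 3 of the 5, Sprr1a, Emp1 and Plaur, and in 8.97% of the 27025 genes with a window. It was in 6.30% of measured genes and in 14.1% of the 128 genes at least 2-fold higher in the knockout pool that had a window, a set that holds the 4 members with a window past 2-fold. The 250 bases before the start are shown for these 3 genes, with each AP-1 match in capitals.
Sprr1a, chr3:92485882-92486131, minus strand: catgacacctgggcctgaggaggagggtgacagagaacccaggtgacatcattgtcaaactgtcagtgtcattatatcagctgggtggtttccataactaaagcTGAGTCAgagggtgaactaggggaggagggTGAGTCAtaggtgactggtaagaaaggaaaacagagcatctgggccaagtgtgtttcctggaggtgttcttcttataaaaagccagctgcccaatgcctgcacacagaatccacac
Emp1, chr6:135362681-135362930, plus strand: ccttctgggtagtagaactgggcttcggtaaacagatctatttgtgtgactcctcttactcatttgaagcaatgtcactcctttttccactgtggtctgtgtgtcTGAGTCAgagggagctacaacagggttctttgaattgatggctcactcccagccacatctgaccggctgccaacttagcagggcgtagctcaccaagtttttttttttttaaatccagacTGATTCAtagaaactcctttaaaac
Plaur, chr7:24462233-24462482, plus strand: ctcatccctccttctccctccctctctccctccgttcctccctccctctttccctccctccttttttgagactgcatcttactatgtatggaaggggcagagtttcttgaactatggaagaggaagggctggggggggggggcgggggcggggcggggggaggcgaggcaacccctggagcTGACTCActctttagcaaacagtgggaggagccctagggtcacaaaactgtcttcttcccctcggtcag

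In Sprr1a the letters TGAGTCA stood at positions -146 to -140 and again at -116 to -110 from the transcript start. In Emp1 they stood at -145 to -139, with a TGATTCA match at -25 to -19 that overlaps a match of the interferon-related motif TTCNNNGAA. Plaur had TGACTCA at -69 to -63. The TEAD motif GGAATG, read on both strands, was in no window of the 5 members, in 16.6% of all genes with a window, in 14.2% of measured genes and in 20.3% of the 128 genes. The NF-kB type motif, GGG and CC separated by 5 bases of any kind on either strand, was in windows of Plaur, Phlda2 and Tnfrsf12a and in 53.5% of all genes, 72.0% of measured genes and 65.6% of the 128 genes. TTCNNNGAA was in Emp1 alone, and in 9.55% of all genes, 8.04% of measured genes and 6.25% of the 128 genes. These are matches of letters in short windows; binding was not measured.

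Other genes known from fetal-like or repairing intestinal epithelium were partly higher. Of 31 listed, 17 were measured and 12 of these were higher in the knockout pool. The number past 1.5-fold was 7 upward (all genes, 4.76%) and 1 downward (all genes, 8.74%), and the median log2 ratio was 0.23, against -0.042 over all measured genes. This list was written with earlier results of these data known, so nothing is read from the comparison. S100a6, a calcium-binding protein, had 2153 in the knockout pool and 398 in the control pool (2.44). Il33, an alarmin cytokine of barrier cells, had 1038 in the knockout pool and 234 in the control pool (2.15). Anxa3, an annexin that binds membranes, had 402 in the knockout pool and 161 in the control pool (1.32).

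The other genes past 1.5-fold in that list were Anxa2 (0.91), the claudin gene Cldn4 (0.88), the laminin-332 chain gene Lamb3 (0.87) and F3, tissue factor, which was at least 1.67-fold higher. A second Anxa2 probe set above the floor gave -0.21. Lama3, which encodes another chain of the same laminin, was lowest at -0.98, with 184 in the knockout pool and 364 in the control pool, so the laminin chains went opposite ways. Annexin A5 (Anxa5, 0.091), Krt19 (0.19) and Cd44 (-0.17) lay within the probe-set error. The direct YAP targets Ccn1, Ccn2 and Ankrd1 and the annexin gene Anxa1 had their brightest probe sets under the floor on both arrays.

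**Figure D3:**
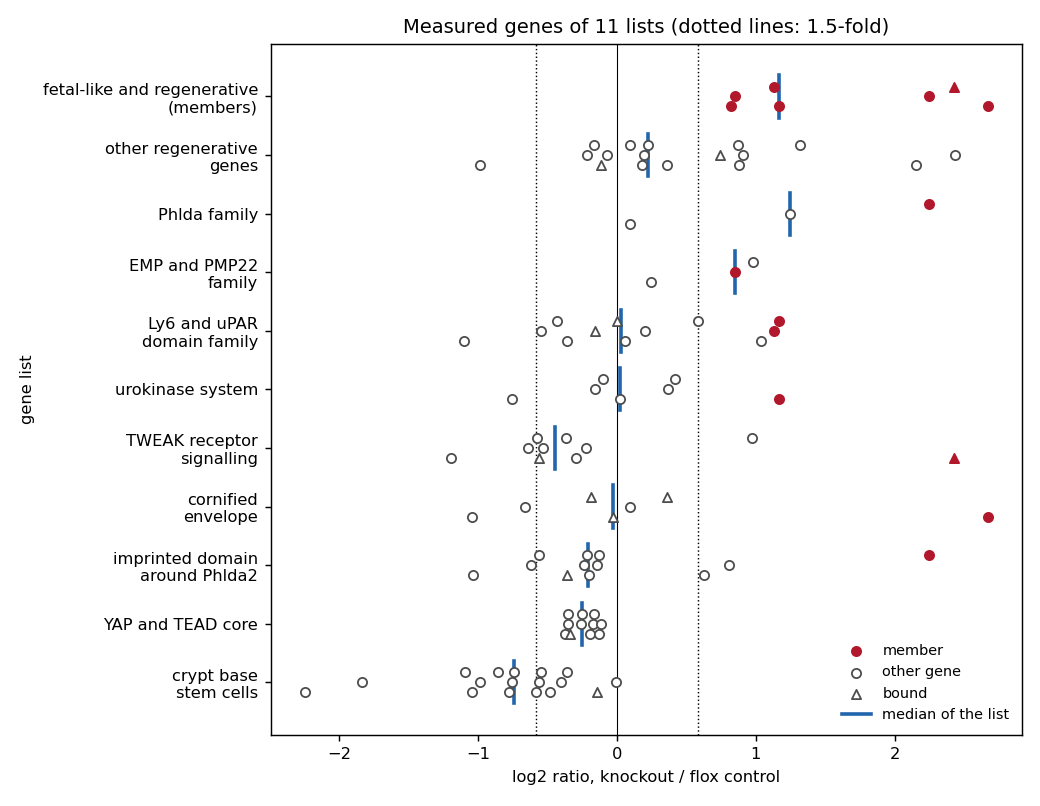
Log2 ratio of knockout over flox control for every measured gene of 11 gene lists, with members as filled red symbols, other genes as open symbols, bounds as triangles and the median of each list as a blue bar. The 11 measured genes of the YAP and TEAD list, which also holds genes that restrain YAP, are drawn between -0.38 and -0.12, with Tead2 as a bound. The 17 stem cell genes all lie below 0.

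Close relatives of the members differed by family. Phlda1, which encodes another pleckstrin homology protein, had 2446 in the knockout pool and 1032 in the control pool (1.25), while Phlda3, a p53 target, was at 0.093. Pmp22, the peripheral myelin protein gene for which Emp1's family is named, had 2310 in the knockout pool and 1172 in the control pool (0.98). Emp2 was at 0.25 and Emp3 was not measured. In these families Phlda1 and Pmp22 were thus the relatives past 1.5-fold.

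In the Ly6 and uPAR domain family 12 of 31 genes were measured, and the 10 that are not members had a median of -0.080. Lynx1, which modulates nicotinic receptors, was at 1.04 (224 in the knockout pool, 109 in the control pool). Ly6m stood at 0.58, just inside 1.5-fold, and Lypd8, a lipid-anchored protein that keeps bacteria off the colonic epithelium and was bright on both arrays, at 0.058. Cd59a, an inhibitor of complement, was lowest at -1.10, with -0.59 by its other probe set. Ly6e had -0.55 with 1 probe set and 0.019 with another. Among 6 other measured genes of the cornified envelope, Evpl, envoplakin, was at -1.04 and Lor, loricrin, at -0.66. Sprr2k, another small proline-rich gene, had 119 in the knockout pool and 24.2 in the control pool, at least 1.28-fold higher. Sprr2d, of the same family, went the other way, with 18.0 in the knockout pool and 94.6 in the control pool, at least 1.02-fold lower. With the floor at the 30th percentile the bounds on the log2 scale were 1.77 for Sprr2k and -1.44 for Sprr2d. Sprr1b, Sprr3 and Ivl, which lie next to Sprr1a in the genome, were under the floor on both arrays.

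Partners of the receptors were mostly lower or within 1.5-fold, as were most measured genes, of which 4.76% passed 1.5-fold upward. For TWEAK signalling, 8 of the 9 measured genes other than Tnfrsf12a were lower in the knockout pool, with a median of -0.53, against -0.042 over all measured genes. Past 1.5-fold were 2 downward (all genes, 8.74%) and 1 upward (all genes, 4.76%). So few genes give no reading of the pathway. Relb, a subunit of non-canonical NF-kB, had 273 in the knockout pool and 626 in the control pool (-1.20). Birc3, an inhibitor of apoptosis recruited by the receptor, was at -0.58 and the adaptor gene Traf2 at -0.53. Map3k14, the kinase of the non-canonical branch, was at 0.97, and its other, dimmer probe set was at least 1.17-fold higher. Nfkb2 was at -0.64, but its other probe set was at least 1.67-fold higher, so its direction is not settled. The ligand gene Tnfsf12 was not analysed here.

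In the urokinase system Plau, the ligand of the Plaur receptor, and Plat, Plg and Vtn were under the floor on both arrays. The integrin genes Itgb1 (0.42, and -0.19 by another probe set) and Itgav (0.37) were within 1.5-fold, and Serpinf2, an inhibitor of plasmin, was lowest at -0.76. Over the 6 measured genes other than Plaur the median was -0.038.

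The YAP and TEAD list holds the genes of YAP, TAZ and the TEADs together with genes that restrain them, such as Lats1, Stk4, Sav1, Mob1a and Vgll4. Of its 14 genes 11 were measured, all of them lower in the knockout pool by their brightest probe sets, with a median of -0.25. Because drivers and restrainers are mixed, that shared direction is not a reading of the repair programme. The 10 above the floor on both arrays lay within 1.5-fold, whereas Tead2, with 58.2 in the knockout pool and 117 in the control pool, was at least 1.26-fold lower and stood at -1.01 with the floor at the 30th percentile. Yap1 itself had 2340 in the knockout pool and 2537 in the control pool (-0.12), with 0.015 by its other probe set, and Tead3 was at -0.38. For interferon gamma signalling, which induces Ly6a, the 5 genes above the floor on both arrays were within 1.5-fold, with Irf1 lowest of these at -0.52, and the bounds were at least 1.14-fold higher for Cxcl10 and at least 1.15-fold lower for Gbp2. Transcript levels of these regulators do not measure their activity.

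Homeostatic stem cell genes stood on the other side. All 17 listed were measured and lower in the knockout pool, 10 of them past 1.5-fold (all genes in that direction, 8.74%), with a median of -0.74. That list too was chosen with earlier results of these data known, so the share is given for scale only. Lgr5 was lowest at -2.25, and Lrig1, at -0.0081, was nearest to no difference. Ascl2, a transcription factor of these stem cells, lies in the same imprinted domain as Phlda2 and had 479 in the knockout pool and 709 in the control pool (-0.56), against 2.24 for Phlda2.

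Other genes of that imprinted domain went both ways. Slc22a18, the nearest measured neighbour of Phlda2 on one side and likewise known to be maternally expressed, was at 0.63, with 0.33 by its other probe set. Nap1l4, its neighbour on the other side, was at -0.24 and Cars, one gene further, at 0.80. Cdkn1c, a maternally expressed cell cycle inhibitor, was at least 1.28-fold lower, and Kcnq1, a potassium channel gene, was lowest at -1.04. Over the 11 measured genes other than Phlda2 the median was -0.21, with 2 past 1.5-fold upward (all genes, 4.76%) and 2 downward (all genes, 8.74%). So few genes give no reading of the domain as a whole.

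Several members are also known from cells other than crypt epithelium, and markers of such cells were read in the same pools. Squamous epithelium expresses Sprr1a and Ly6d: of 11 squamous markers 3 were measured, and their summed signal was 495 in the knockout pool and 492 in the control pool. Of these 3, Krt5 was at 0.67, Sbsn was at -0.15 and Krt6a was at least 1.27-fold lower. Krt14, Krt13, Krt4 and Trp63 were under the floor on both arrays. Of the 10 named endothelial markers 3 were measured, with sums of 517 in the knockout pool and 555 in the control pool, and Pecam1 and Cdh5 were under the floor. Of 12 fibroblast markers 4 were measured, with sums of 664 in the knockout pool and 665 in the control pool, and Col1a1, Col3a1 and Pdgfra were under the floor. Within that list, Col1a2 (116 in the knockout pool, 63.6 in the control pool) and Fn1 (121 in the knockout pool, 69.5 in the control pool) were above the floor in the knockout pool alone, at least 1.25-fold and 1.31-fold higher. Vim, the brightest of the 4, had 339 in the knockout pool and 420 in the control pool (-0.31) and so weighed most in the sums. Of 8 smooth muscle markers 3 were measured, with sums of 4551 in the knockout pool and 4436 in the control pool. Mylk alone made up most of both sums, with 4264 in the knockout pool and 4166 in the control pool. Acta2 was at 0.76, Des was at least 1.62-fold lower, and Myh11 and Tagln were under the floor.

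Leukocyte markers differed more. Myeloid cells express Plaur, and 11 of 16 myeloid markers were measured, 6 of them higher and 5 lower in the knockout pool. Their sums were 5427 in the knockout pool and 7450 in the control pool. Most of both came from Lyz2 (2477 in the knockout pool, 3225 in the control pool) and Ptprc, a gene of leukocytes in general (966 in the knockout pool, 2136 in the control pool). The sums are therefore no reading of myeloid cells alone. Csf1r, the receptor of a macrophage growth factor, was highest at 2.53, with 1.21 and 0.65 by its other probe sets. C1qa, a complement gene of macrophages, was at least 2.64-fold higher, whereas Fcer1g (-1.90) and Tyrobp (-1.34) were lower. All 8 measured B and plasma cell markers were higher by their brightest probe sets, 6 of them past 1.5-fold (all genes in that direction, 4.76%). Their sums were 7894 in the knockout pool and 3368 in the control pool. Sdc1 supplied 2663 and 1741 of these and was at 0.61, but -0.031 and 0.053 by other measured probe sets, so its direction is not settled. Of 15 T and natural killer markers 8 were measured, and 7 of these were lower, 6 of them past 1.5-fold (all genes in that direction, 8.74%). Their sums were 3565 in the knockout pool and 12632 in the control pool, of which Gzmb alone supplied 1222 and 6969. The eighth, Zap70, had 1.45 with the brightest of its 3 probe sets, but another gave -1.18 and the last was at least 1.71-fold lower, so its direction is not settled. M cells, the antigen-sampling epithelium over lymphoid follicles, express Clu: of 10 M cell markers 7 were measured (sums of 5328 in the knockout pool and 4852 in the control pool), Ccl20 was at 1.12 and Spib at -0.93, and Gp2 was under the floor on both arrays. The part of these cells in the members' ratios was not tested.

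The members' ratios depended on how low signals were treated, and quantile normalisation, lowess and centring moved each by less than the probe-set error. Under each of the 8 alternatives a member was higher in the knockout pool wherever it was measured. The same arrays were read each time, so this is no test of the direction. With the floor at the 70th percentile of all signals (318), Plaur, Ly6d and Clu were no longer measured, and Sprr1a, Phlda2 and Tnfrsf12a became bounds of at least 1.98-fold, 1.42-fold and 1.57-fold. Emp1 ranged only between 0.82 and 0.95. Without probe sets ending in _s_at or _x_at, Clu was not measured.

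**Figure D4:**
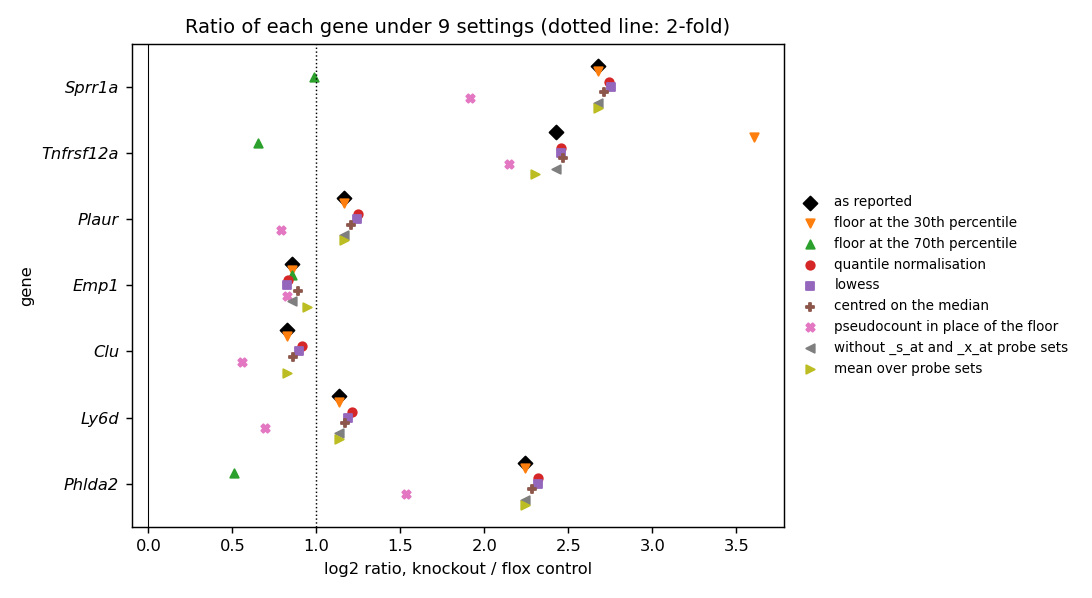
Log2 ratio of knockout over flox control for each measured member as reported (black diamond) and under the 8 other settings (coloured symbols); a missing symbol means that the gene was under the floor on both arrays. The pseudocount and the higher floor pull in the members with a low control signal, while the points for Emp1 stay between 0.82 and 0.95.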

How the data were processed

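Crypt RNA of 5 mice per genotype was pooled, extracted with Trizol and read on 1 array each. The deposited values are a linear signal intensity for each probe set; the submitters' processing notes name MAS5, with no version or options. The 2% trimmed mean was 500.003 on both arrays, so no further scaling was applied. The platform is named as a smaller design than the number of probe sets shows. Of 45101 probe sets, 64 array controls were set aside, 34945 had 1 gene symbol, 932 several and 9160 none here; symbols were updated through Entrez identifiers to RefSeq (GRCm38.p6) for 34741.

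Log2 ratios were knockout minus control, with values under the floor (50th percentile, 92.9) raised to it. Each gene is read by the probe set with the highest mean log2 signal. Probe-set error is the SD of the difference between the ratios of a gene's 2 brightest probe sets divided by the square root of 2. Calculations used Python 3.11.15, pandas 2.3.3 and statsmodels 0.14.6 (lowess span 0.3), and were tested on simulated data. With 1 array per group no test of genotype was made, and lists are described by counts at 1.5-fold and 2-fold and by medians. The genes and lists were chosen with earlier results of these data known; the comparison with genes of a control signal near the floor, and the neighbouring genes, were added after the values were seen, and the symbols of Lor and Cars were then respelled to match RefSeq; the text may name all members, genes of the lists, Lpcat3, the 3 genes nearest in ratio to Sprr1a and the 2 protein-coding genes on each side of a member. Protein sequences were not analysed here. Alternatives were 2 other floors, quantile normalisation, lowess, centring, a pseudocount, no _s_at or _x_at probe sets, and the mean over probe sets.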

Additional observations from a re-analysis of the deposited data

How the results depend on the processing

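No paired analysis was possible because there is a single array for each genotype; leaving one out would leave no comparison. Over the 8 alternatives, 52 ratios of members could be recomputed and all 52 were above 0. Of the 84 values of members and summaries, 69 moved by less than the probe-set error, used in place of a spread between replicates (counts by less than 1.5 times). These counts were partly fixed in advance and test nothing. The same arrays are read each time, and a member under the floor on both drops out. A bound above the floor in the knockout pool alone is always above 0. Members with 1 probe set do not change when probe sets are dropped or averaged. With the floor at the 70th percentile, 3 members were at least 1.5-fold and 0 at least 2-fold higher, with a median of 0.75, and the bounds were 0.98 for Sprr1a, 0.65 for Tnfrsf12a and 0.51 for Phlda2; fewer members were measured and more were bounds. With it at the 30th percentile Tnfrsf12a was measured on both arrays, at 3.61. A pseudocount equal to the floor, which shrinks ratios of dim genes by construction, left 3 members at least 2-fold higher and a median of 0.82, with 1.91 for Sprr1a, 2.145 for Tnfrsf12a, 1.53 for Phlda2, 0.79 for Plaur and 0.69 for Ly6d. Without _s_at and _x_at probe sets the median was 1.71, since Clu drops out. The median of the other regenerative genes stayed between 0.13 and 0.36. Of genes that are no members, Nfkb2 changed sign without _s_at and _x_at probe sets (0.74) and with the mean over probe sets (0.051). Sdc1, a plasma cell marker, changed to -0.031 without those probe sets, and Zap70, a T cell marker, to -0.17 with the mean. Without _s_at and _x_at probe sets another probe set is read, whereas the mean averages probe sets that disagree. Low signal over background limits every member but Emp1, and Tnfrsf12a ranged most, between 0.65 and 3.61, and the median ratio of all genes shifted by less than 0.1 under every setting.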

Other observations

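Of 11 listed genes of fetal growth, chromatin and RNA binding, 4 were measured and all were above the floor on both arrays; 1 was higher in the knockout pool and none passed 1.5-fold upward. Afp, alpha-fetoprotein, a serum protein of the fetal liver and gut, had 258 in the knockout pool and 678 in the control pool (-1.39), and a pair of its other probe sets, also measured on both arrays, gave -2.17 and -1.73. Igf2bp3, an RNA-binding protein of fetal tissues, was at 0.16, though another probe set was at least 1.43-fold lower, and Hmga2, a chromatin protein, at -0.050. Lin28b and Igf2bp1 were under the floor on both arrays.

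Apoe, an apolipoprotein that like clusterin is bound by receptors of the LDL receptor family, had 392 in the knockout pool and 108 in the control pool (1.85, 1 probe set). By their brightest probe sets, Apoa1 (0.11), Apoa4 (-0.018) and Apob (-0.066) did not differ beyond the probe-set error, while another Apoa1 probe set gave 0.284. Of 32 protein-coding genes adjacent to a member, 11 were measured, with a median of 0.024. Past 1.5-fold were 4, all upward (all measured genes in that direction, 4.76%), namely Lynx1 beside Ly6d, Ccdc25 near Clu (0.86), and Slc22a18 and Cars near Phlda2. For prostaglandin E2, which is known to act on repairing epithelium, the receptor gene Ptger4 was at 0.40 and Hpgd, which degrades prostaglandins, at -0.65, and Ptgs2 was under the floor on both arrays. All 7 measured genes of TGF-beta signalling lay within 1.5-fold, with Tgfbr1 lowest at -0.43 and Smad7 highest at 0.34. Gastric markers, of which 5 were measured, had a median of -0.018.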
